A study of Homo sapiens with 4 samples.

Results

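The 10 genes described here encode enzymes of asparagine, cysteine, glutathione, serine, folate and proline metabolism: ASNS, CHAC1, CTH, PHGDH, PSAT1, PSPH, SHMT2, MTHFD2, ALDH18A1 and PYCR1. They were taken by gene symbol from a table of 58735 genes, all 10 were found there, and all 10 passed the filter on low values. They were chosen by their pathway and with their read counts in these same 4 libraries already known, so their levels and ratios are a description and no test was made. RNA was sequenced from HEK293T cells, a human embryonic kidney line, whose PBRM1 gene had been disrupted with CRISPR. The cells received a plasmid for GFP-tagged PBRM1 and were collected 48 h later. The plasmid carried the P1048R, T1202K or C1233W mutant, each changed in the BAH (bromo-adjacent homology) part of the protein, or the WT protein. All 4 groups share the disrupted locus, and the sources used here do not say whether the line is 1 clone. Each construct had 1 library, so every difference below is a difference between libraries without a replicate check.

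PBRM1 belongs to PBAF, a complex that remodels chromatin. Cells make asparagine, serine and proline from intermediates of central metabolism, pass the carbon of serine to folate in mitochondria, and draw on serine and homocysteine for cysteine, a building block of the antioxidant glutathione. The transcription factor ATF4 is known for raising many genes of these pathways when amino acids run short or the endoplasmic reticulum is under stress.

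The libraries held 11205322 (P1048R), 10993748 (T1202K), 10348552 (C1233W) and 10246250 (WT) counted reads. Levels are given as CPM, read counts relative to a library size that was adjusted with the TMM (trimmed mean of M values) factor, and a floor of 3 reads corresponded to between 0.251 and 0.321 CPM. Intervals are 95% intervals of counting error only. PBRM1 stood at 8805 CPM in P1048R, 15262 CPM in T1202K, 60509 CPM in C1233W and 22768 CPM in WT, which counts plasmid and locus together and so does not check the mutations. All 12 HEK293 markers reached 1 CPM in every library, and their summed level was 1173 to 1646 CPM. The blood cell markers CD3E and HBG1 had no reads in any library. The 6 fibroblast and endothelial markers summed to 17.7, 25.5, 36.6 and 34.3 CPM in P1048R, T1202K, C1233W and WT, mostly COL1A1. The 6 liver and squamous markers summed to 1.59, 0.618, 2.22 and 0.642 CPM in the same order, mostly ALB where it was high. The part of such small differences in the results was not tested.

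ASNS and CHAC1 stood apart in the C1233W library, where each was between 5 and 6 times its WT level. The other 8 genes differed by less than 2-fold in every comparison. CTH, PYCR1, SHMT2 and PSAT1 were higher in each of the 3 mutant libraries than in WT, beyond counting error. The serine enzymes were highest in C1233W, and ALDH18A1 was lowest in C1233W.

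A gene passed the size rule when its log2 ratio between libraries was at least 1 in size, after 0.5 was added to each count, and its counting interval excluded 0. None of the 10 genes passed in P1048R against WT, where 7.5% of 16262 genes compared did (4.48% higher and 3.02% lower). None passed in T1202K against WT, where 5.15% of all genes did (2.95% higher and 2.21% lower). In C1233W against WT 2 of 10 passed, ASNS and CHAC1, both higher, beside 5.4% of all genes (4.19% higher and 1.21% lower). The genes were chosen with these contrasts known, so nothing is read from these counts. The median log2 ratio against WT was 0.17 in P1048R, 0.31 in T1202K and 0.51 in C1233W, where the medians of all genes were −0.04, −0.01 and −0.01. Scaled by total counts instead, the medians of all genes became 0.18, 0.17 and 0.12, and those of the 10 genes 0.39, 0.49 and 0.64. The genes past the rule numbered 728 higher and 491 lower in P1048R, 479 and 359 in T1202K and 681 and 197 in C1233W against WT, and on total counts 1250 and 236, 799 and 227, and 942 and 129. That scaling adds nearly the same amount to every log2 ratio of a comparison, so that distances from the median of all genes stay.

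**Figure D1:**
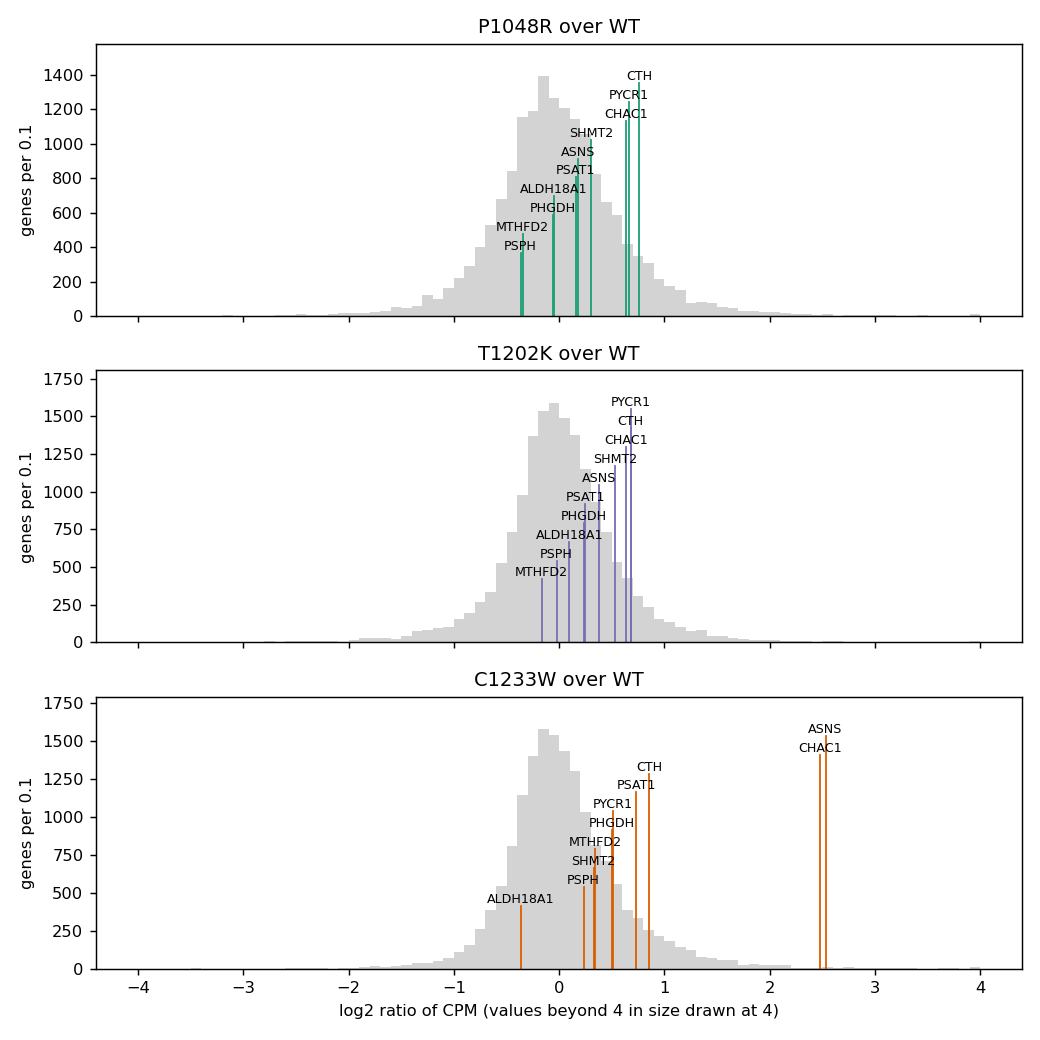
Histograms of the log2 ratio of CPM against WT for 16262 genes (grey, genes per bin of 0.1), with the 10 enzyme genes as vertical lines whose heights only space the labels. ASNS and CHAC1 lie near 2.5 in the C1233W panel, and the other members lie within the bulk of genes in all 3 panels.

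ASNS is asparagine synthetase, which transfers nitrogen from glutamine to aspartate. The gene (ENSG00000070669) spans bases 97852118 to 97872542 of chromosome 7 in GRCh38, on the minus strand. It had 35 reads in P1048R, 38 in T1202K, 156 in C1233W and 24 in WT, or 2.93, 3.36, 15.1 and 2.57 CPM in the same order. C1233W was the high library and the other 3 lay close together. The log2 ratio of C1233W over WT was 2.53 (1.93 to 3.24), which 0.387% of all genes exceeded. Over P1048R it was 2.35 (1.83 to 2.94), and over T1202K it was 2.15 (1.65 to 2.72). P1048R and T1202K did not differ from WT beyond counting error, with log2 ratios of 0.18 (−0.60 to 1.00) and 0.38 (−0.39 to 1.19).

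ASNS was the least abundant of the 10 enzymes per length in all 4 libraries, at 0.658, 0.753, 3.39 and 0.576 CPM per kb of annotated exon in P1048R, T1202K, C1233W and WT. Of its 4455 exonic bases 1985, or 44.6%, are also exonic in AC079781.5, a processed transcript of the same strand. The sources used here do not say how reads lying in 2 genes were counted, so the level of ASNS may be understated in all 4 libraries. AC079781.5 itself held 13, 19, 20 and 16 reads in the same order, with a log2 ratio of C1233W over WT of 0.17 (−0.85 to 1.22). Per kb of the bases not shared with another gene, ASNS stood at 1.19, 1.36, 6.11 and 1.04 CPM.

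CHAC1 is a γ-glutamyl cyclotransferase that breaks down glutathione, and its gene (ENSG00000128965) spans bases 40952962 to 40956519 of chromosome 15, plus strand. It had 56 reads in P1048R, 53 in T1202K, 175 in C1233W and 28 in WT, corresponding to 4.69, 4.68, 16.9 and 3.00 CPM. Again C1233W was high, and P1048R and T1202K were nearly equal. The log2 ratio of C1233W over WT was 2.48 (1.92 to 3.13), and it was 1.84 (1.41 to 2.31) over P1048R and 1.85 (1.40 to 2.33) over T1202K. In P1048R and T1202K against WT it was 0.63 with intervals that reached below 0 (−0.03 to 1.36 and −0.04 to 1.36). On total counts these 2 ratios of CHAC1 became 0.86 (0.19 to 1.58) and 0.81 (0.13 to 1.53). With DESeq2 scaling CHAC1 had 0.68 (0.01 to 1.40) in P1048R and 0.65 (−0.02 to 1.38) in T1202K. Its paralog CHAC2, which has the same activity at a slower rate, did not follow it: 29.7, 26.1, 24.7 and 30.2 CPM in P1048R, T1202K, C1233W and WT, a log2 ratio of −0.29 (−0.54 to −0.04) in C1233W against WT.

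In the comparisons between mutants, ASNS and CHAC1 were again the only 2 of the 10 genes past the size rule. They passed in C1233W against P1048R, where 4.54% of all genes did (3.73% higher and 0.806% lower), and in C1233W against T1202K, where 3.54% did (3.05% higher and 0.486% lower). None of the 10 passed in T1202K against P1048R, where 1.24% of all genes did (0.572% higher and 0.664% lower). PBRM1 was also highest in C1233W. PBRM1 stood lower in P1048R and T1202K than in WT. There ASNS did not differ from WT beyond counting error, and for CHAC1 that depended on the scaling. With 1 library per construct, the mutation and the PBRM1 level cannot be told apart. The part of either in these differences was not tested.

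**Figure D2:**
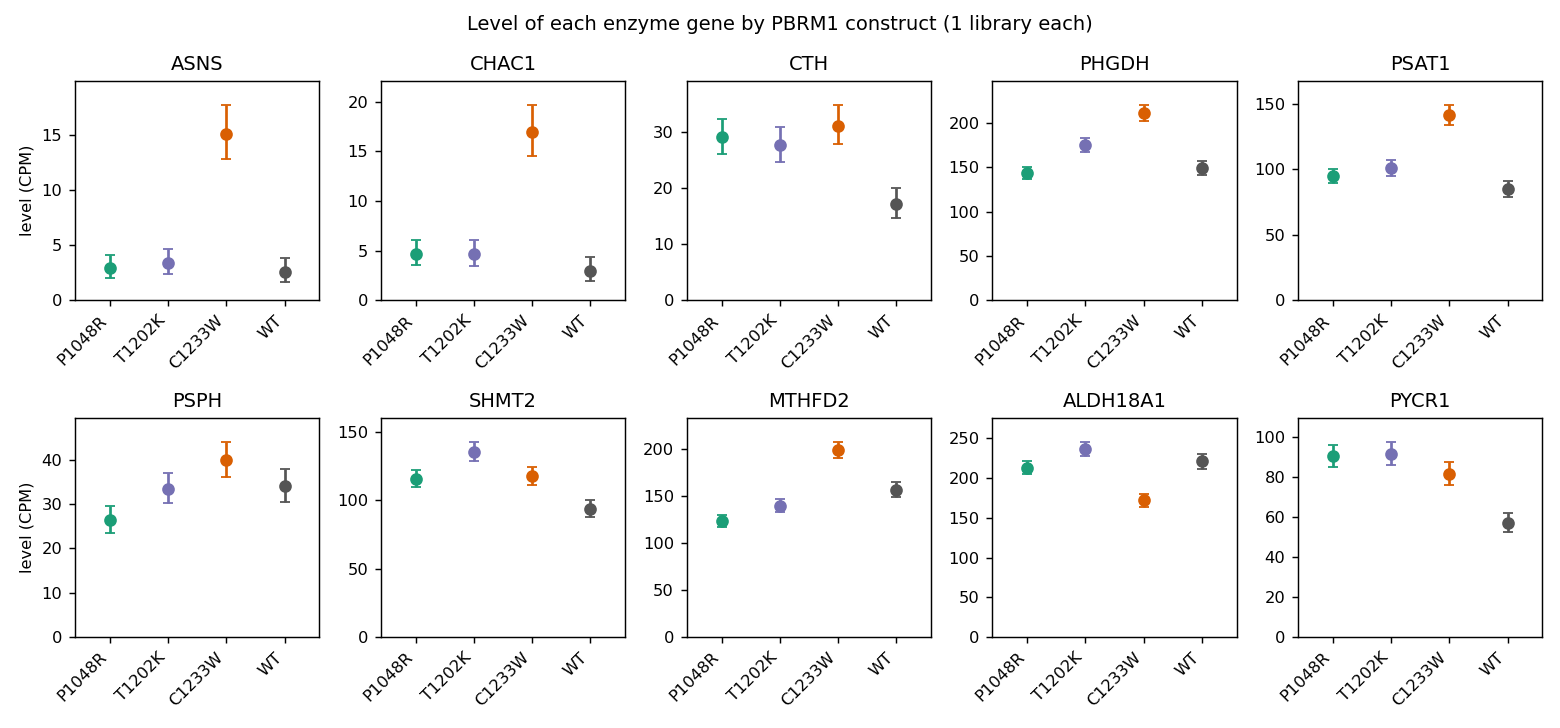
Level in CPM of each of the 10 genes in the P1048R, T1202K, C1233W and WT libraries, 1 point per library, with bars for the 95% Poisson interval of its count. ASNS reaches 15.1 and CHAC1 16.9 CPM in C1233W. Both of these genes, CTH, PYCR1, SHMT2 and PSAT1 have their lowest point in WT, and ALDH18A1 has its lowest in C1233W.

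Promoter sequence is shown for these genes as context. As background, ATF4 with a C/EBP partner is known to bind a composite element, the C/EBP-ATF response element, and whether it did so in these cells was not measured. The core of the element, TGATGNAA, was searched on both strands of RefSeq promoter windows (GRCh38.p14) from 250 bases before to 50 after the gene start. The search matched 3.62% of 35116 windows. Windows were found by symbol for 7 of the 10 genes, ASNS, CHAC1, CTH, PHGDH, PSAT1, MTHFD2 and ALDH18A1, and the core was found in 1 of 2 windows of ASNS and in that of CHAC1. A match describes the letters in the window and is not evidence of binding. The ASNS match begins 68 bases before the gene start, and 30 bases around it, on the minus strand at chr7:97872458-97872487, read as below. The CHAC1 match begins 209 bases before the gene start, and reads TGATGCAA on the opposite strand. Its 30 bases are shown on the plus strand, chr15:40953251-40953280. The capitals mark the core. The gene start used here is that of the RefSeq window, which for ASNS and CHAC1 lies inside the GENCODE span given above. In GENCODE both matches fall inside an exon of another transcript of the same gene. The windows of CTH, PHGDH, PSAT1, MTHFD2 and ALDH18A1 held no match. For ALDH18A1 and PSAT1 the 250 bases before the gene start, which hold no exon of the gene, are given for comparison. They lie on the minus strand at chr10:95656712-95656961 for ALDH18A1 and on the plus strand at chr9:78296875-78297124 for PSAT1.
ASNS: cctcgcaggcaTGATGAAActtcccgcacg
CHAC1: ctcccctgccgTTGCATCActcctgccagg
ALDH18A1: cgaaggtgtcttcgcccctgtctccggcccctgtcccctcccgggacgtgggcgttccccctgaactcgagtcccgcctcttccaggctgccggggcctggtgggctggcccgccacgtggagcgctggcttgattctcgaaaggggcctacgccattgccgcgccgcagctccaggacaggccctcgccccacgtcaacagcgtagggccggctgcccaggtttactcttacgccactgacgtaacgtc
PSAT1: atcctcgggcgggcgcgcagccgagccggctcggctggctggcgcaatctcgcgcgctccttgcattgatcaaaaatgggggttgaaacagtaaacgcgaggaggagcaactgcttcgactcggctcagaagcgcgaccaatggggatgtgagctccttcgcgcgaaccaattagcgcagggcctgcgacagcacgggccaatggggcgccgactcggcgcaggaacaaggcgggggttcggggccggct

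CTH, cystathionine γ-lyase, releases cysteine in the last step of transsulfuration and is encoded by bases 70411218 to 70439851 of chromosome 1, plus strand (ENSG00000116761). It had 348, 313, 322 and 161 reads in P1048R, T1202K, C1233W and WT, or 29.1, 27.6, 31.1 and 17.2 CPM. WT was the low library, and the 3 mutants did not differ from each other beyond counting error. The log2 ratios against WT were 0.76 (0.49 to 1.04) in P1048R, 0.68 (0.40 to 0.97) in T1202K and 0.85 (0.58 to 1.14) in C1233W, all under 2-fold. CBS, which makes the substrate of CTH, held 21 reads in P1048R, 8 in T1202K, 10 in C1233W and 3 in WT. It reached 1 CPM in P1048R alone and so entered the comparison through that library, and WT was at the floor of 3 reads. CBS is also uncertain because a near-identical copy, CBSL, can share its reads. CBSL held 82, 77, 78 and 56 reads in P1048R, T1202K, C1233W and WT, with a log2 ratio of P1048R over WT of 0.19 (−0.31 to 0.71).

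PHGDH starts serine synthesis by oxidising a glycolytic intermediate and its gene (ENSG00000092621) spans bases 119648411 to 119744226 of chromosome 1, plus strand. It stood at 143 CPM in P1048R, 175 in T1202K, 211 in C1233W and 149 in WT. C1233W was highest, T1202K came next, and P1048R and WT did not differ beyond counting error. The log2 ratios against WT were −0.06 (−0.16 to 0.04) in P1048R, 0.23 (0.13 to 0.33) in T1202K and 0.50 (0.40 to 0.60) in C1233W. The first of these turned to 0.16 on total counts.

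PSAT1, the transaminase of the next step, is encoded at bases 78297143 to 78330093 of chromosome 9, plus strand (ENSG00000135069). Its level was 94.7, 101, 141 and 85.1 CPM in P1048R, T1202K, C1233W and WT, again highest in C1233W. The log2 ratios against WT were 0.16 (0.02 to 0.29), 0.25 (0.12 to 0.38) and 0.73 (0.61 to 0.86) for P1048R, T1202K and C1233W. PSPH, the phosphatase that completes serine, is encoded at bases 56011051 to 56051604 of chromosome 7, minus strand (ENSG00000146733). It stood at 26.4, 33.5, 40.0 and 34.0 CPM in the same order, so P1048R was low and C1233W high. Its log2 ratios against WT were −0.37 (−0.60 to −0.14), −0.02 (−0.24 to 0.20) and 0.23 (0.02 to 0.45), of which that of T1202K became 0.15 on total counts. The 3 enzymes summed to 264, 310, 392 and 268 CPM, and each of them was highest in C1233W.

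SHMT2 is the mitochondrial enzyme that splits serine into glycine and a folate-bound carbon, encoded at bases 57229327 to 57234935 of chromosome 12, plus strand (ENSG00000182199). Its level was 116, 136, 118 and 93.8 CPM in P1048R, T1202K, C1233W and WT. T1202K was highest and WT lowest, and P1048R and C1233W did not differ beyond counting error. The log2 ratios against WT were 0.30 (0.18 to 0.43), 0.53 (0.41 to 0.65) and 0.33 (0.20 to 0.45) in P1048R, T1202K and C1233W. MTHFD2 oxidises the carbon that SHMT2 loads on folate, and is encoded at bases 74198562 to 74217565 of chromosome 2, plus strand (ENSG00000065911). Its level was 123, 139, 198 and 157 CPM in the same order, so that C1233W lay above WT and P1048R and T1202K below it. The log2 ratios were −0.35 (−0.45 to −0.24) in P1048R, −0.17 (−0.27 to −0.06) in T1202K and 0.34 (0.24 to 0.44) in C1233W. On total counts the value of T1202K was 0.01.

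A ratio between 2 genes of the same library does not depend on how libraries are scaled. It can still depend on a GC or length trend that differs between libraries, which was not removed from the pair ratios below. The GC content is 41.4% for MTHFD2 and 57.0% for SHMT2, and 49.3% for ALDH18A1 and 61.8% for PYCR1. The reads per kb of MTHFD2 over those of SHMT2 were 1.06 (0.98 to 1.14) in P1048R, 1.02 (0.95 to 1.10) in T1202K, 1.67 (1.56 to 1.80) in C1233W and 1.66 (1.52 to 1.81) in WT. P1048R and T1202K thus formed a low pair and C1233W and WT a high pair, without overlap of the counting intervals between the pairs. By the length of the longest transcript the values were 0.82, 0.79, 1.29 and 1.28, since another length multiplies all 4 by the same constant. The cytosolic paralog of SHMT2, SHMT1, had log2 ratios of 0.14, 0.20 and 0.00 in P1048R, T1202K and C1233W against WT. MTHFD2L, the paralog of MTHFD2, had −0.52, −0.09 and −0.52 in the same order.

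ALDH18A1, known as P5CS, makes the precursor of proline and ornithine from glutamate, and its gene (ENSG00000059573) spans bases 95605929 to 95656706 of chromosome 10, minus strand. It stood at 213 CPM in P1048R, 236 in T1202K, 172 in C1233W and 221 in WT. C1233W was the low library. The log2 ratios against WT were −0.05 (−0.14 to 0.03), 0.10 (0.01 to 0.18) and −0.36 (−0.45 to −0.27) in P1048R, T1202K and C1233W, and that of P1048R was 0.17 on total counts. The log2 ratio of C1233W over T1202K was −0.46 (−0.54 to −0.37). PYCR1, the mitochondrial reductase that completes proline, is encoded at bases 81932384 to 81942412 of chromosome 17, minus strand (ENSG00000183010). It stood at 90.5, 91.7, 81.5 and 57.1 CPM in P1048R, T1202K, C1233W and WT, with WT the low library. Its log2 ratios against WT were 0.66 (0.51 to 0.82), 0.68 (0.53 to 0.84) and 0.51 (0.36 to 0.67), and with the trend of GC content and length removed that of T1202K was 0.40.

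The reads per kb of ALDH18A1 over those of PYCR1 were 1.81 (1.68 to 1.94) in P1048R, 1.97 (1.84 to 2.12) in T1202K, 1.62 (1.49 to 1.76) in C1233W and 2.96 (2.69 to 3.26) in WT. WT lay above all 3 mutants. The paralog PYCR3 stood at 23.5, 27.4, 20.1 and 21.9 CPM in P1048R, T1202K, C1233W and WT, so that WT was not its low library. Among the serine enzymes, the reads per kb of PSPH over those of PSAT1 were 0.22 (0.19 to 0.25) in P1048R and 0.26 (0.23 to 0.30) in T1202K. They were 0.22 (0.20 to 0.25) in C1233W and 0.32 (0.28 to 0.36) in WT, and the intervals of T1202K and WT overlapped. The reads per kb of PSAT1 over those of PHGDH lay between 2.40 in WT and 2.83 in C1233W. By longest transcript this last ratio was 0.83 to 0.98 instead, because the 9217 annotated exonic bases of PHGDH far exceed its longest transcript of 3180 bases, so the order of the pair is not settled.

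**Figure D3:**
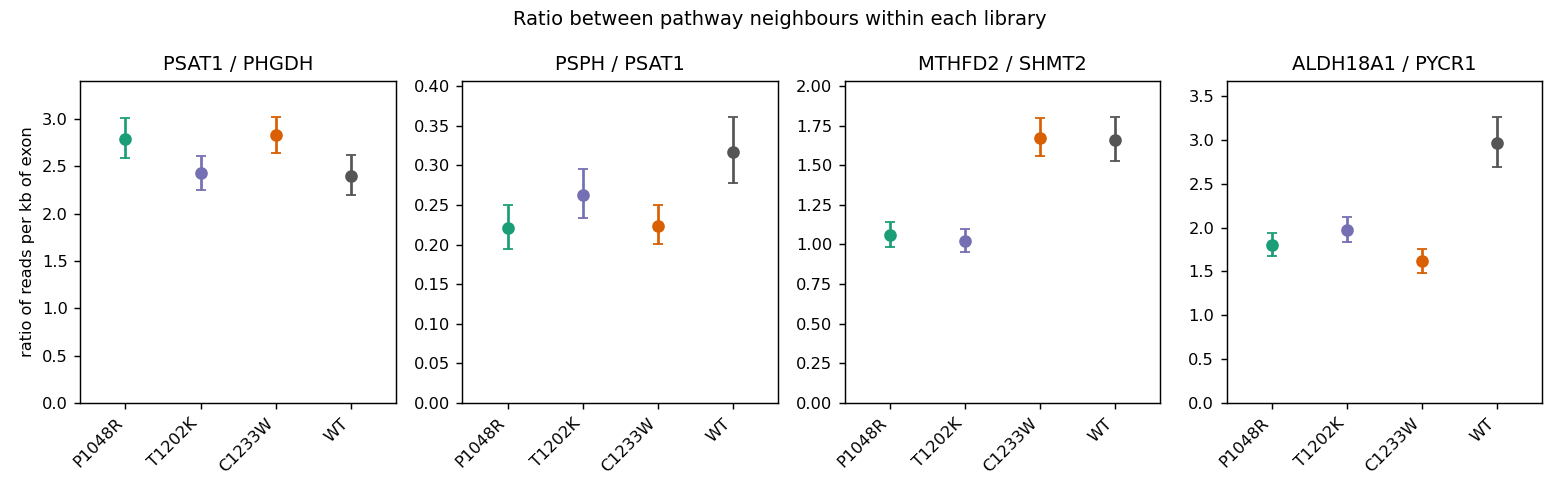
Ratio of reads per kb of annotated exon between pathway neighbours within each library, 1 point per library with its 95% counting interval. MTHFD2 over SHMT2 is near 1 in P1048R and T1202K and near 1.7 in C1233W and WT, and ALDH18A1 over PYCR1 is highest in WT.

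All 10 genes together made up 844, 948, 1025 and 819 CPM in P1048R, T1202K, C1233W and WT. Against WT, the counting interval lay above 0 for 4 genes in P1048R, 6 in T1202K and 9 in C1233W, and below 0 for PSPH and MTHFD2 in P1048R, MTHFD2 in T1202K and ALDH18A1 in C1233W. On total counts, 7 genes in P1048R lay above 0 and 1 below, and none in T1202K below. Among all 16262 genes the interval lay above 0 for 23.9% and below 0 for 27.1% in P1048R, for 22.2% and 22.3% in T1202K, and for 19.7% and 24.8% in C1233W. The 10 genes were chosen with these ratios known, so nothing is read from their counts, and such intervals hold no variation between cultures.

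**Figure D4:**
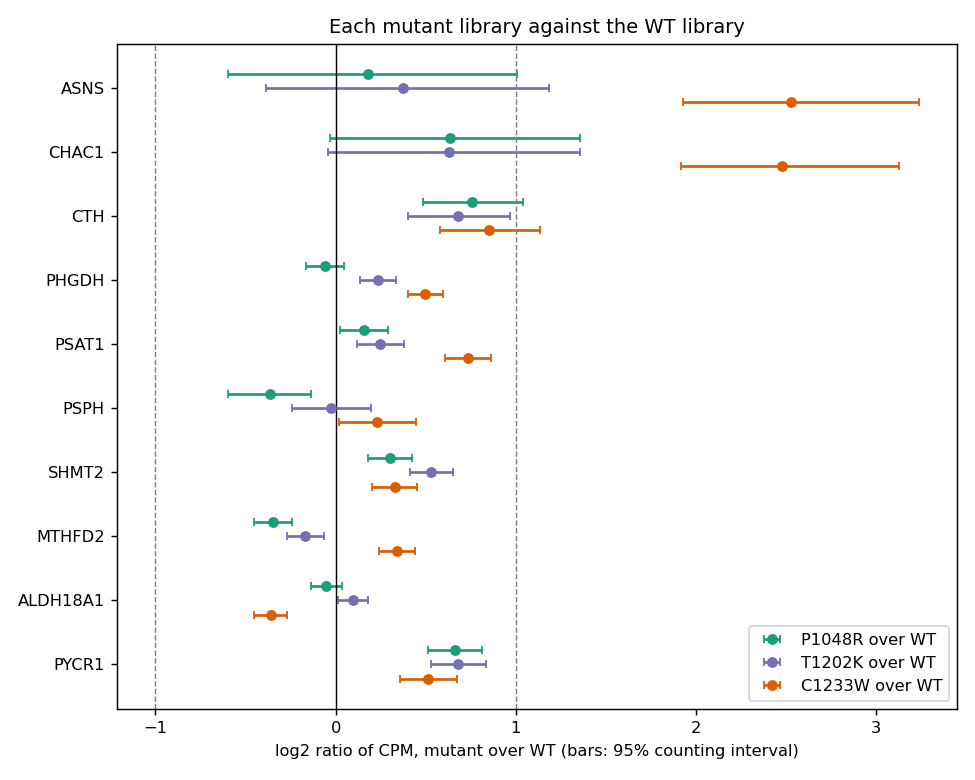
Log2 ratio of each mutant library over the WT library for the 10 genes, with 95% counting intervals and dashed lines at 2-fold. ASNS and CHAC1 in C1233W lie beyond the upper line. CTH, PYCR1, SHMT2 and PSAT1 lie above 0 with their intervals in all 3 mutants.

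Other genes of these pathways were read from lists compiled by function. Beside the counts below, the share of all genes past the size rule against WT was 7.5% in P1048R, 5.15% in T1202K and 5.4% in C1233W. Of 14 measured enzymes of asparagine, aspartate and glutamine, 1 passed the size rule in each mutant against WT. It was GPT2, the mitochondrial alanine transaminase, at 86.5, 75.8, 81.3 and 37.2 CPM in P1048R, T1202K, C1233W and WT, with log2 ratios of 1.22 (1.04 to 1.40), 1.02 (0.84 to 1.21) and 1.12 (0.94 to 1.31). The list medians were −0.18, −0.05 and −0.15 for P1048R, T1202K and C1233W, each below that of all genes.

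Of 20 measured serine, glycine and folate enzymes, ALDH1L2 passed as higher in C1233W and GCSH as lower in T1202K. ALDH1L2, a mitochondrial folate dehydrogenase, stood at 5.95, 9.18, 15.3 and 5.24 CPM in P1048R, T1202K, C1233W and WT, a log2 ratio of 1.53 (1.07 to 2.04) in C1233W. GCSH, a carrier protein of glycine cleavage, stood at 7.12, 6.45, 8.71 and 13.5 CPM, a log2 ratio of −1.06 in T1202K, and is uncertain because it has processed copies in the genome. The list medians were −0.05, 0.11 and −0.11. None of 9 measured proline and ornithine enzymes passed in any mutant, with list medians of −0.09, 0.10 and −0.18.

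Of 11 measured transsulfuration and methionine cycle enzymes, none passed in T1202K, and in P1048R the one past the rule was CBS, whose call is not read because P1048R alone brought it past the filter. MAT2A, which makes S-adenosylmethionine, was lower in C1233W with a log2 ratio of −1.16 (−1.26 to −1.07). MAT2A stood at 158, 176, 136 and 304 CPM in P1048R, T1202K, C1233W and WT, with WT the high library. The medians of this list, CBS included, were −0.03, 0.02 and −0.22 for P1048R, T1202K and C1233W. Of 20 measured glutathione enzymes, MGST1, a membrane glutathione transferase, was lower in P1048R (18.9 CPM against 38.7 CPM in WT, log2 ratio −1.03), and GGT1, a surface enzyme that cleaves glutathione, was higher in C1233W (38 reads against 14 reads in WT, log2 ratio 1.26). GGT1 belongs to a family of close copies, so it is uncertain. The medians of the glutathione list were −0.29, −0.12 and −0.20 for P1048R, T1202K and C1233W.

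Of 13 measured kinases and factors of the ATF4 pathway, 2 were higher in P1048R, 1 in T1202K and 3 in C1233W, and 1 was lower in C1233W. Of all genes, 4.48%, 2.95% and 4.19% were higher in the same order, and 1.21% were lower in C1233W. The list medians against WT were 0.17, 0.18 and 0.60 for P1048R, T1202K and C1233W. Compared directly, C1233W was not higher as a list. Its median was −0.02 against P1048R and −0.02 against T1202K, with 6 of 13 genes above 0 in each. CEBPB alone passed the size rule, higher in C1233W than in P1048R with a log2 ratio of 1.07 (0.71 to 1.45). There 3.73% of all genes were higher past the rule. ATF4 itself stood at 272, 272, 428 and 240 CPM in P1048R, T1202K, C1233W and WT, and was highest in C1233W with a log2 ratio against WT of 0.83 (0.76 to 0.91), under the size rule. DDIT3 (CHOP), a stress factor known to act upstream of CHAC1, was at 11.2, 10.3, 20.7 and 9.95 CPM, highest in C1233W with a log2 ratio against WT of 1.05 (0.70 to 1.42). The feedback regulator TRIB3 was instead above WT in each mutant, at 27.1, 26.5 and 23.4 CPM in P1048R, T1202K and C1233W, against 10.3 CPM in WT, with log2 ratios of 1.40, 1.36 and 1.18. ATF3, a stress factor of the same family, stood at 232, 162, 199 and 84.4 CPM in P1048R, T1202K, C1233W and WT. Its log2 ratio passed the rule in P1048R (1.45) and C1233W (1.24) and was 0.94 in T1202K. ATF5 was the factor lower in C1233W, with a log2 ratio of −1.12 (−1.55 to −0.71). Over P1048R and T1202K, C1233W had log2 ratios of 0.65 and 0.65 for ATF4 and 0.88 and 0.9998 for DDIT3. For ATF5 they were −0.74 and −0.67. Their part in the levels of the enzyme genes was not tested.

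**Figure D5:**
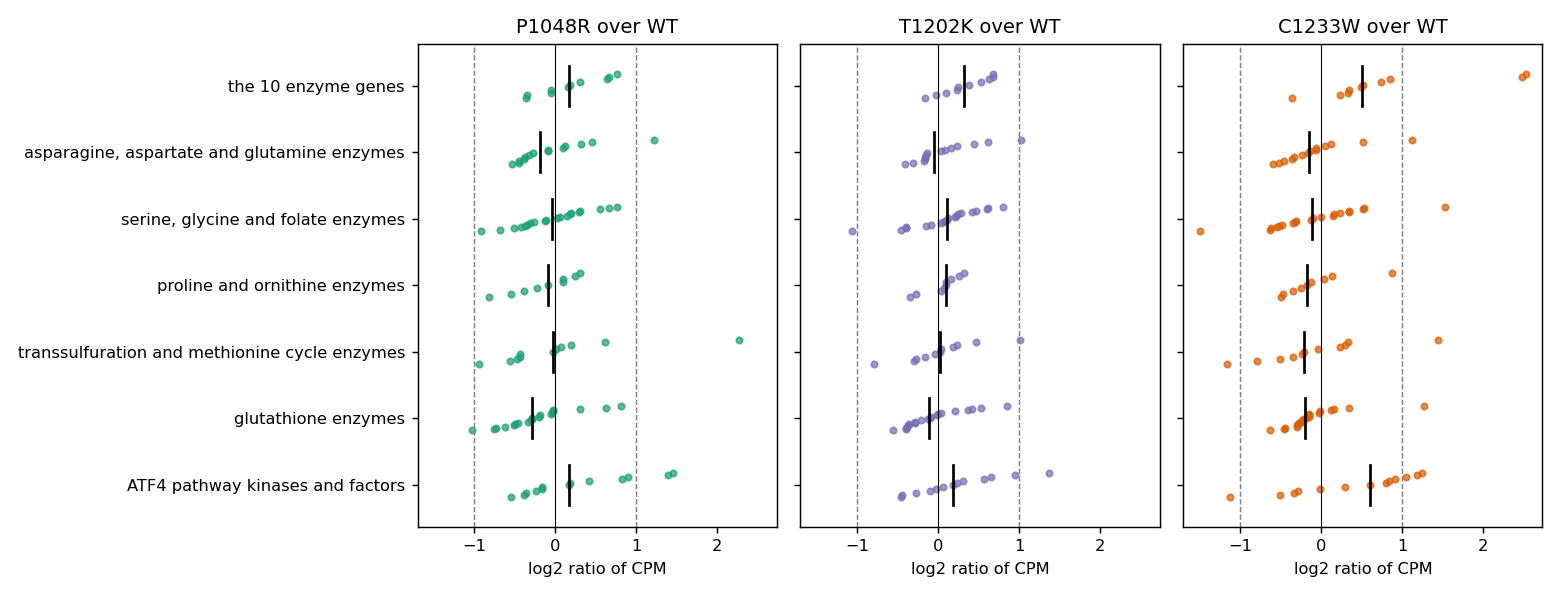
Log2 ratio of CPM against WT for the 10 enzyme genes and for the measured genes of 6 pathway lists, 1 point per gene, with a black bar at each list's median and dashed lines at 2-fold. In the C1233W panel the 10 enzyme genes have a median of 0.51, the 5 other enzyme lists have medians of −0.11 to −0.22, and the ATF4 pathway list has a median of 0.60, beside −0.01 for all genes.

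The genes most like ASNS were sought by the Euclidean distance between their 3 log2 ratios against WT, among 11670 genes averaging at least 5 CPM and leaving out the 10 enzyme genes. The nearest was DDIT4, an inhibitor of mTORC1, at a distance of 0.11, with log2 ratios of 0.18, 0.46 and 2.60 in P1048R, T1202K and C1233W. JDP2 (0.38), ETV5 (0.79), GEM (0.82) and NGFR (0.92) followed at growing distance. JDP2, ETV5 and NGFR exceeded 5 CPM in C1233W alone, at 14.7, 9.67 and 10.3 CPM. GEM stood at 4.94, 6.09, 13.2 and 3.64 CPM in P1048R, T1202K, C1233W and WT, and averaged 5 CPM only with C1233W counted. JDP2, ETV5, GEM and NGFR thus entered the search through the library where they are high. Their likeness to ASNS is therefore partly set by the filter. Of the enzyme genes left out, CHAC1 lay at 0.52 from ASNS and the other 8 at 1.80 or more. Nearest to the median profile of the 10 genes were ITM2C, CTBS, FBXL20, AC009404.1 and TMEM116, at distances of 0.03 to 0.07. With 3 ratios that use the same WT library, such likeness is a description of these libraries.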

How the data were processed

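Per the labels' protocols, TRIzol-extracted total RNA was purified on columns, and Qiagen's stranded chemistry was used for sequencing libraries. The authors deposited raw read counts for each gene and library. The submitters' processing notes name Trim Galore, HISAT2, featureCounts and hg38. Versions, annotation, strand setting and the handling of reads in several genes were not given in the sources used here, so overlapping genes are uncertain. The 58735 identifiers all matched GENCODE release 29 (GRCh38), which gave coordinates and lengths; promoter letters came from RefSeq.

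Library sizes were scaled by TMM in edgeR 4.0.16 (R 4.3.3), with factors of 1.07 (P1048R), 1.03 (T1202K), 0.999 (C1233W) and 0.912 (WT). Comparisons kept the 16262 genes that reached 1 CPM in any library. Levels have exact Poisson intervals, and ratios intervals by the Clopper-Pearson method on the split of a gene's reads between 2 libraries (scipy 1.17.1). PCR copies are not independent molecules, so intervals cover counting error only. Alternatives were total-count and DESeq2 1.42.0 scaling, TMM without PBRM1, other filters, 2 added to each count, thinned counts, and removal of a GC and length trend; lengths by transcript or by unshared exon bases were added after the data were seen. The calculation was tested on simulated data. The members, lists and neighbour pairs were chosen with earlier results of these data known. Genes outside the 10 are named where they passed the size rule on a fixed list, are paralogs of a member, were among the 5 nearest patterns, or overlap a member; of the ATF4 list, ATF4 was named after its values were seen. Some results on the fixed lists are not reported here.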

Additional observations from a re-analysis of the deposited data

How the results depend on the processing

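No paired analysis was possible because each construct had 1 library. ASNS and CHAC1 passed the size rule in C1233W against P1048R, T1202K and WT under all 8 alternatives, with log2 ratios over WT of 2.46 to 2.66 for ASNS and 2.32 to 2.61 for CHAC1, and no other of the 10 genes passed in any comparison. The changes of filter kept the same counts and scaling, so they could not alter any ratio of the 10 genes. Of 480 recomputed ratios, those under other filters included, 9 changed sign, none of them past the rule, 6 of these under total-count scaling. With total counts, in P1048R against WT the median ratio became 0.39, 7 genes had an interval above 0 and 1 below; in T1202K the median became 0.49 and 0 genes lay below. A minimum of 5 CPM left fewer genes to test, and the numbers of all genes past the rule were then 603, 359 and 330 in P1048R, T1202K and C1233W against WT, 201 and 124 in C1233W against P1048R and T1202K, and 17 in T1202K against P1048R, against 1219, 838, 878, 738, 575 and 201 as reported. ASNS and CHAC1, with 24 to 56 reads outside C1233W, are the least precise of the 10 genes.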

Other observations

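AC005326.1, annotated as a processed pseudogene on the opposite strand inside an intron of ASNS, was looked at because it lies within the span of a member. It held 8 reads in P1048R, 4 in T1202K, 25 in C1233W and 2 in WT. It reached 1 CPM in C1233W alone, and its WT count lay under the floor of 3 reads, so no ratio is given. SLC4A5, whose exons share 27.2% of the exonic bases of MTHFD2 on the opposite strand, held 31, 26, 34 and 16 reads in P1048R, T1202K, C1233W and WT. Of 16 pseudogenes named after a member, the highest count in any library was 5 reads.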
